A study of Mus musculus with 9 samples.

Results

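The Kruppel-like factors are zinc finger proteins that recognise GC-rich and CACCC-containing DNA. Some members activate transcription, others recruit co-repressors, and several act in myeloid cells: Klf2 holds monocytes and lymphocytes in a resting state, Klf4 promotes monocyte formation, and Klf6 takes part in macrophage activation. Klf10 and Klf11 are induced by TGF-beta, while Klf9 is a target of the glucocorticoid receptor. The 9 genes described here, Klf2, Klf3, Klf4, Klf6, Klf7, Klf9, Klf10, Klf11 and Klf13, were taken by symbol from the array annotation. Each had 1 probe set, and together they make 9 of 19937 genes measured.

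Expression was measured on 9 arrays of RN2, a line of mouse acute myeloid leukaemia cells with MLL-AF9 and NrasG12D. All cells, controls included, were transduced with an inducible TRMPV hairpin vector and kept in 1 ug/ml doxycycline for 96 h, which switches the hairpin on. The control hairpin Rluc targets Renilla luciferase, a gene absent from mouse cells, and has 3 arrays. Brg1, the ATPase of the SWI/SNF chromatin remodelling complex, was targeted with Brg1sh_3232, with Brg1sh_3364 or with Brg1sh_4935, on 2 arrays each. The cell line name of the Rluc arrays holds an extra term, TtTMPV, that the Brg1 arrays lack, so any difference it stands for and the knockdown cannot be told apart. The series asks which transcription lies downstream of Brg1 in this leukaemia.

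Values are log2 levels after RMA, a routine that corrects background, equalises arrays and summarises the probes of each gene. Array medians lay between 7.39 and 7.49. A gene was called when the adjusted p of limma, a linear model fitted to all genes at once, was below 0.05. Changes are differences of log2 group means with their standard error (SE), and a fold is the same difference on the linear scale. The targeted gene, Smarca4, read 11.77 to 11.79 on the Rluc arrays and 10.67 to 10.90 on the knockdown arrays, and its level did not pass the test of a difference among the 3 hairpins (limma F test, adjusted p = 0.802). The 12 myeloid leukaemia markers averaged 12.70 to 12.74 on Rluc arrays and 12.52 to 12.70 with knockdown. Over the mean of the 3 hairpin groups 10 of them were called, 4 higher and 6 lower. Of all genes 28.3% were called in that comparison, 13.3% as higher and 15% as lower. Mpo, the granule peroxidase, fell (log2 change -0.87, SE 0.05, limma adjusted p = 3.11e-06), as did Prtn3 (-0.56) and Hoxa9 (-0.40), while Itgam rose by 0.40 and Cd34 by 0.35. By limma 0 of 4 T cell, 0 of 3 B cell and 0 of 4 erythroid markers were called, and 0 had an unadjusted p below 0.05. Among 4 endothelial markers Pecam1, also made by myeloid cells, rose by 0.56 (SE 0.04, adjusted p = 1.27e-05). Among 3 fibroblast markers Pdgfrb rose by 0.39 (SE 0.05, adjusted p = 0.000668), with 0.84 in Brg1sh_3232, 0.41 in Brg1sh_4935 and -0.07 in Brg1sh_3364, and was not called without Brg1sh_3232 (0.17, adjusted p = 0.0884). The part of these changes in the Klf values was not tested. The labels do not say whether arrays of a group are separate cultures, and the p-values therefore rest on array-to-array spread that may be technical. RNA came from bulk cultures, in which a change in the share of a cell type and a change in RNA per cell cannot be told apart.

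The promoters of the members were read from RefSeq (GRCm38.p6), which gave a window for 8 of the 9 genes, Klf10 being the exception. The windows run from 250 bases before the start of transcription to 50 after it. They are rich in CpG dinucleotides, with 16 to 42 in each against a median of 7 over 32851 promoter windows, and their GC content was 58.3% to 77.7% against a median of 52.7%. The windows of Klf2, Klf6 and Klf11 are printed because their genes rose with Brg1 knockdown. Capitals mark CACCC, the core of Klf recognition, CCAAT, the box bound by NF-Y, and the MEF2 consensus, each on either strand, so that GGGTG and ATTGG are the same motifs read on the other strand. No marked match overlaps another in these windows.
Klf2, chr8:72318812-72319111, plus strand: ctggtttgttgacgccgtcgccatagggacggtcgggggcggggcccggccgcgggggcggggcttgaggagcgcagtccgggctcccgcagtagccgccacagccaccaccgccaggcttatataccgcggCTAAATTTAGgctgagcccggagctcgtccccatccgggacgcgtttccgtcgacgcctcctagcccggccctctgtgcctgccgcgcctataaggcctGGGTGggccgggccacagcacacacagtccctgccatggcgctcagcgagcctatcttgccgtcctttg
Klf6, chr13:5861239-5861538, plus strand: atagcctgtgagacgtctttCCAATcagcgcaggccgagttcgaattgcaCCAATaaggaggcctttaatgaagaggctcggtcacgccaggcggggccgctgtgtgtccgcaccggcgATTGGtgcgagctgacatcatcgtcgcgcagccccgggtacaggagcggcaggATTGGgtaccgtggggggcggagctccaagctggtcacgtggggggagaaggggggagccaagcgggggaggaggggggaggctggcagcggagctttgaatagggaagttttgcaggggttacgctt
Klf11, chr12:24651121-24651420, plus strand: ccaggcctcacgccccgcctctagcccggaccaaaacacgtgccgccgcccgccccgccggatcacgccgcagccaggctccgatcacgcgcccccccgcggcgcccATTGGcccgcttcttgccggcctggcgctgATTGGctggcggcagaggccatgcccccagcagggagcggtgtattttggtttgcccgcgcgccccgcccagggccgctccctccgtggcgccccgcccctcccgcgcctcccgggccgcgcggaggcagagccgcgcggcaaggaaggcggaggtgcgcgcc
The Klf2 window holds 1 MEF2 match, at bases -118 to -109 from the start, a motif present in 0.557% of all windows. Its only CACCC match lies at -19 to -15 on the minus strand. The Klf6 window has 4 CCAAT boxes between -230 and -74 and the Klf11 window 2, and neither holds CACCC. Among the 8 windows, 5 had CACCC (57.5% of all windows), 7 had GGGCGG, the Sp1 box (35.7%), 4 had CCAAT (37.4%), 3 had the E-box CACGTG (7.15%), 1 had the MEF2 consensus, and 0 had TATAAA (13.6%) or TGACGTCA (1.79%). Both strands were searched for each of these motifs. In 2 windows, those of Klf3 and Klf13, a CACCC overlapped a GGGCGG. These are matches of letters and not measured sites.

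Klf2, Klf6 and Klf10 rose with every Brg1 hairpin. Over the mean of the hairpins Klf6 rose 1.6-fold, Klf2 1.49-fold and Klf10 1.4-fold, and for each of these genes all 6 knockdown arrays lay above all 3 Rluc arrays. Klf11 rose by 0.17, with arrays that overlapped. The other 5 members did not pass the test in this comparison, and none fell. On the values as deposited, 4 of 9 members thus rose and 0 fell. Of all genes 28.3% were called, 13.3% as higher and 15% as lower. With arrays centred on their medians or a further quantile normalization, Klf9 was called lower and Klf11 was not called. The members were chosen with earlier results of these data known, so the count does not describe the whole family. Of the 8 other Klf genes measured, 0 were called in this comparison and 0 had arrays apart from Rluc. The median change of the members was 0.15 and their median absolute change 0.15, beside 0.07 for the absolute change of all genes. Groups did not overlap for 3 of the 9 members, all with knockdown above Rluc, where 22.8% of all genes had such groups. The calls of all genes were 47.1% higher as deposited and 36.5% higher with each array centred on its median.

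**Figure D1:**
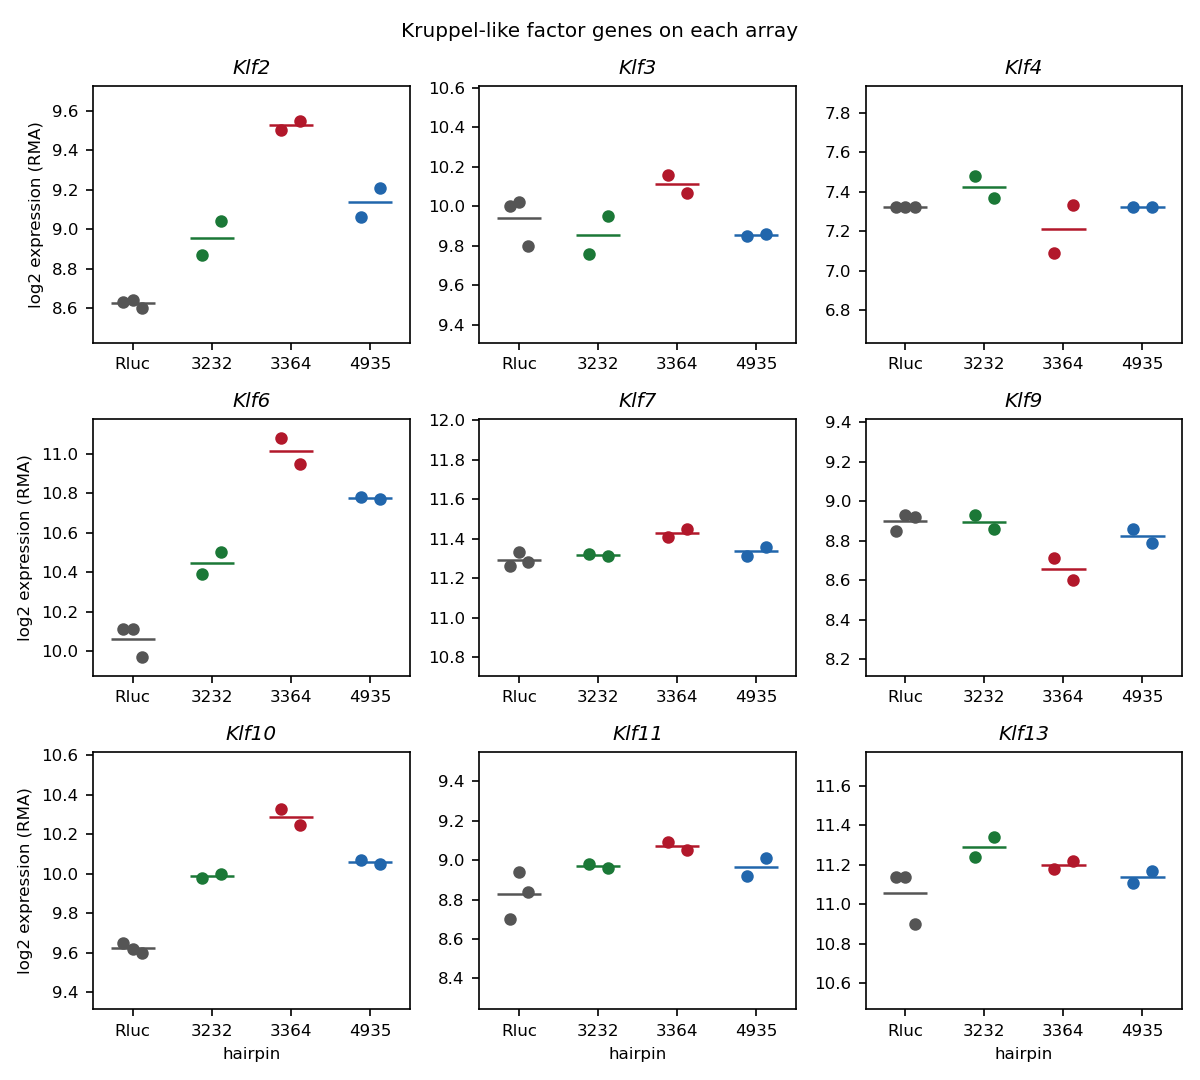
Log2 RMA expression of each of the 9 genes on every array; each point is 1 array, each line a group mean, and every panel spans the same height on the log2 axis. Klf2, Klf6 and Klf10 separate completely from Rluc, from 8.60 to 8.64 against 8.87 to 9.55 for Klf2, whereas Klf3, Klf4 and Klf7 overlap it.

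Klf2, the quiescence factor of lymphocytes and monocytes, read 8.63, 8.64 and 8.60 on the Rluc arrays. With Brg1sh_3232 it read 8.87 and 9.04, with Brg1sh_4935 9.06 and 9.21, and with Brg1sh_3364 9.50 and 9.55. Every knockdown array was thus above the controls, and the Brg1sh_3364 arrays were the highest. Against Rluc it rose by 0.33 with Brg1sh_3232 (SE 0.06, limma adjusted p = 0.00653), by 0.51 with Brg1sh_4935 (SE 0.06, adjusted p = 0.000518) and by 0.90 with Brg1sh_3364 (SE 0.06, adjusted p = 2.04e-05). Over the mean of the hairpins the rise was 0.58 (SE 0.05, adjusted p = 3.76e-05). The call with Brg1sh_3232 was lost without its replicate 2, where the rise was 0.24 (adjusted p = 0.059).

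Klf6, a regulator described as a tumour suppressor and active in macrophages, had Rluc values of 10.11, 10.11 and 9.97. Its values were 10.39 and 10.50 with Brg1sh_3232, 10.78 and 10.77 with Brg1sh_4935, and 11.08 and 10.95 with Brg1sh_3364. The groups did not overlap each other at all, and they stood in the same order as for Klf2. The rise was 0.38 with Brg1sh_3232 (SE 0.06, limma adjusted p = 0.00353), 0.71 with Brg1sh_4935 (SE 0.06, adjusted p = 8.84e-05) and 0.95 with Brg1sh_3364 (SE 0.06, adjusted p = 1.68e-05). The last of these is a 1.93-fold difference. Over the mean of the hairpins the rise was 0.68 (SE 0.05, adjusted p = 1.7e-05).

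Klf10, a TGF-beta-induced repressor that works through Sin3a, read 9.65, 9.62 and 9.60 with Rluc. It read 9.98 and 10.00 with Brg1sh_3232, 10.07 and 10.05 with Brg1sh_4935, and 10.33 and 10.25 with Brg1sh_3364. Replicate arrays lay close together in every group, and again no 2 groups overlapped. It rose by 0.37 with Brg1sh_3232 (SE 0.05, limma adjusted p = 0.000622), by 0.44 with Brg1sh_4935 (SE 0.05, adjusted p = 0.000177) and by 0.66 with Brg1sh_3364 (SE 0.05, adjusted p = 1.66e-05). The mean rise was 0.49 (SE 0.03, adjusted p = 1.42e-05).

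Klf11, the closest relative of Klf10, had a smaller change. Its Rluc values were 8.70, 8.94 and 8.84, and its knockdown values ran from 8.92 with Brg1sh_4935 replicate 1 to 9.09 with Brg1sh_3364 replicate 1. The highest control lay above that lowest knockdown array. Its mean rise of 0.17 (SE 0.05, limma adjusted p = 0.0342) passed the test narrowly. By hairpin it was called with Brg1sh_3364 (0.24, SE 0.07, adjusted p = 0.0271) but not with Brg1sh_3232 (0.14, adjusted p = 0.186) or Brg1sh_4935 (0.14, adjusted p = 0.221). The mean call was lost in 16 of 22 alternative treatments, among them both other scalings (adjusted p = 0.0892 after a further quantile normalization and 0.0861 with arrays centred). It was also lost without Brg1sh_3232 replicate 1 (0.0717) or 2 (0.0633), Brg1sh_3364 replicate 1 (0.0779) or 2 (0.0643), Brg1sh_4935 replicate 2 (0.0864), or Rluc replicate 1 (0.12) or 3 (0.0806). The call with Brg1sh_3364 alone was lost without either array of that hairpin (0.145 and 0.0954) and without Rluc replicate 1 (0.0507) or 3 (0.0537).

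**Figure D2:**
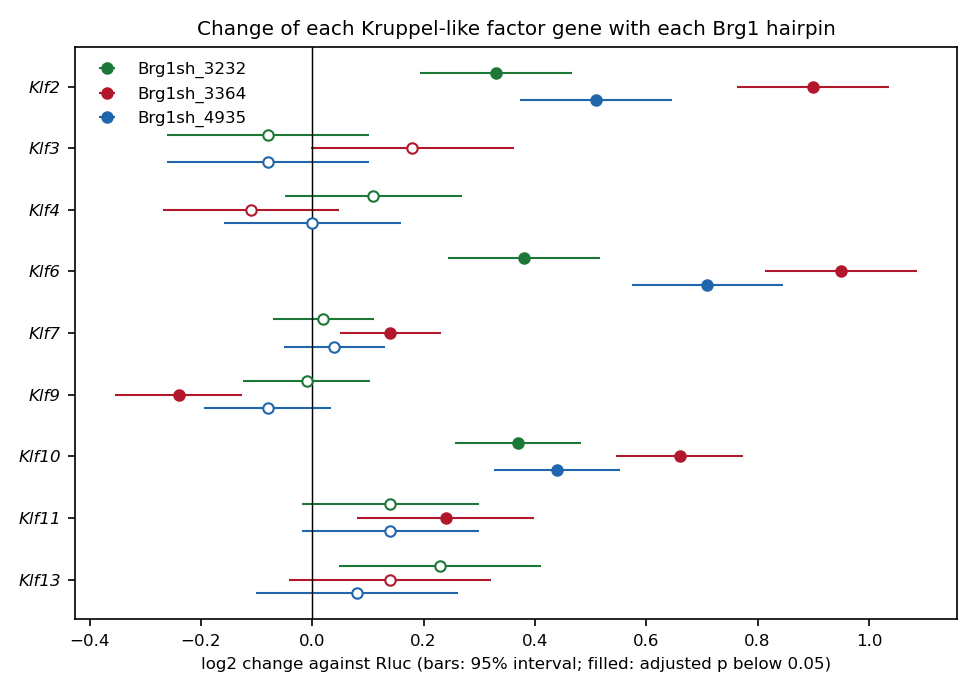
Log2 change of each gene against Rluc with each Brg1 hairpin; points are fitted changes, bars are 95% intervals of the fit, and filled points have an adjusted p below 0.05. For Klf2, Klf6 and Klf10 all points are filled and the Brg1sh_3364 point lies farthest right, at 0.90, 0.95 and 0.66.

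Klf9, a hormone-responsive repressor, was lower with Brg1sh_3364. It read 8.85, 8.93 and 8.92 with Rluc, 8.93 and 8.86 with Brg1sh_3232, 8.86 and 8.79 with Brg1sh_4935, and 8.71 and 8.60 with Brg1sh_3364. The Brg1sh_3364 arrays were the lowest of the 9, and the arrays of the other 2 hairpins overlapped the controls. The fall with Brg1sh_3364 was called (log2 change -0.24, SE 0.05, limma adjusted p = 0.00992), but not without its replicate 2 (-0.19, adjusted p = 0.0892). The changes with Brg1sh_3232 (-0.01, adjusted p = 0.951) and Brg1sh_4935 (-0.08, adjusted p = 0.402) did not pass. Its mean change of -0.11 (SE 0.04, adjusted p = 0.0884) missed the threshold as deposited. It passed with arrays centred (-0.15, adjusted p = 0.0363), further normalized by quantiles (-0.16, adjusted p = 0.0403) or without Brg1sh_3232 (-0.16, adjusted p = 0.0328).

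Klf7, a relative of Klf6 studied in neurons and blood progenitors, had a small change with 1 hairpin. Its Rluc values were 11.26, 11.33 and 11.28, and only the Brg1sh_3364 arrays, at 11.41 and 11.45, lay above all of the others. The rise with Brg1sh_3364 was 0.14 (SE 0.04, limma adjusted p = 0.0426), the changes with Brg1sh_3232 and Brg1sh_4935 were 0.02 and 0.04 (adjusted p = 0.79 and 0.606). The Brg1sh_3364 call was lost in 12 of 19 alternatives. These included arrays centred on their medians (0.10, adjusted p = 0.198), and leaving out Brg1sh_3364 replicate 1 (adjusted p = 0.0871) or 2 (0.187), either array of Brg1sh_4935 (0.0566 for each), or Rluc replicate 1 (0.0977) or 3 (0.0859).

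Klf13, which binds the Ccl5 promoter in T cells, read 11.14, 11.14 and 10.90 with Rluc. Knockdown arrays ran from 11.11 with Brg1sh_4935 replicate 1 to 11.34 with Brg1sh_3232 replicate 2, so most lay above the controls but the groups overlapped. Its mean change was 0.15 (SE 0.06, limma adjusted p = 0.101, 95% interval 0.01 to 0.28). A further quantile normalization brought it past the threshold (0.18, adjusted p = 0.0417). By hairpin the change was 0.23 with Brg1sh_3232 (SE 0.08, adjusted p = 0.0673, 95% interval 0.05 to 0.40), 0.14 with Brg1sh_3364 (adjusted p = 0.237) and 0.08 with Brg1sh_4935 (adjusted p = 0.592). With Brg1sh_3232 it was called after the quantile normalization (0.25, adjusted p = 0.0384) and with genes below the median level left out (0.23, adjusted p = 0.0355).

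Klf3 and Klf4 were not called over the mean of the hairpins or with any single hairpin. Klf3, a repressor that recruits CtBP, read 10.00, 10.02 and 9.80 with Rluc and 9.76 to 10.16 with knockdown. Its mean change was 0.00 (SE 0.06, limma adjusted p = 0.975), with a 95% interval of -0.14 to 0.15. By hairpin it was -0.08 with Brg1sh_3232, 0.18 with Brg1sh_3364 and -0.08 with Brg1sh_4935. Both Brg1sh_3364 arrays, at 10.16 and 10.07, were above all others. Brg1sh_3232 and Brg1sh_4935 each differed from Brg1sh_3364 by -0.26 (95% interval -0.46 to -0.06, adjusted p = 0.102 and 0.127). With array weights the Brg1sh_4935 difference was called (adjusted p = 0.0491). Klf4, the monocyte-promoting member, read 7.32 on each Rluc array and on both Brg1sh_4935 arrays. It read 7.48 and 7.37 with Brg1sh_3232 and 7.09 and 7.33 with Brg1sh_3364, so the knockdown arrays lay on both sides of the controls. Its mean change was 0.00 (SE 0.05, adjusted p = 1, 95% interval -0.12 to 0.12). On 4 of the 9 arrays the deposited Klf4 value was the same to the last digit, as happened for 13.1% of all probe sets at 4 or more arrays. The level of Klf4 was below 7.8, the median of all genes, and no detection calls were used here. Without Brg1sh_3364 replicate 2 the Klf4 change with that hairpin was called (-0.23, adjusted p = 0.0401), as was its difference from Brg1sh_3232 (0.33, adjusted p = 0.036).

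The hairpins differed from each other in the size of the response. Klf2, Klf6 and Klf10 passed the F test among the hairpins, which uses no control array in its contrasts (limma adjusted p = 0.00336, 0.00394 and 0.0125), as did 10.5% of all genes. Each stood lowest with Rluc, then Brg1sh_3232, then Brg1sh_4935, and highest with Brg1sh_3364. Brg1sh_3232 lay below Brg1sh_3364 by 0.58 for Klf2 (log2 difference -0.58, SE 0.07, adjusted p = 0.00174), by 0.57 for Klf6 (-0.57, SE 0.07, adjusted p = 0.00192) and by 0.30 for Klf10 (-0.30, SE 0.05, adjusted p = 0.00706). For Klf10 this difference and the F test were lost without Brg1sh_3364 replicate 1 (adjusted p = 0.0583 and 0.101). Klf9 ran the other way and was higher with Brg1sh_3232 than with Brg1sh_3364 (0.24, SE 0.06, adjusted p = 0.0409), although its F test missed the threshold (adjusted p = 0.0734). That makes 4 of 9 members called between these hairpins, 3 lower and 1 higher with Brg1sh_3232, where 9.66% of all genes were called, 5.81% as lower and 3.84% as higher. With Klf3, Klf4 and Klf7, 7 members had an unadjusted limma p below 0.05. The Klf9 difference was lost without any 1 of the arrays other than Rluc replicates 1 and 3 (adjusted p from 0.0584 to 0.18).

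Brg1sh_4935 was placed between the other hairpins less firmly. It lay below Brg1sh_3364 for Klf2 (-0.39, SE 0.07, limma adjusted p = 0.0106) and Klf10 (-0.23, SE 0.05, adjusted p = 0.0253), but for Klf6 the difference missed the threshold (-0.24, SE 0.07, adjusted p = 0.0788, 95% interval -0.40 to -0.08). The Klf2 difference was lost without either Brg1sh_3364 array (adjusted p = 0.0589 and 0.0767) or without Brg1sh_4935 replicate 1 (0.0946). The Klf10 difference was lost without any 1 of the arrays of these hairpins (0.16, 0.051, 0.115 and 0.129). The other members were not called, which leaves 2 of 9, both lower, where 7.61% of all genes were called, 4.51% as lower and 3.1% as higher. An unadjusted limma p below 0.05 was reached by 5 members, Klf2, Klf3, Klf6, Klf9 and Klf10. By limma 0 members were called between Brg1sh_4935 and Brg1sh_3232, although 2, Klf2 and Klf6, had an unadjusted p below 0.05. Of all genes 1.02% were called there, 0.612% as higher and 0.411% as lower. The nearest member was Klf6 (0.33, SE 0.07, adjusted p = 0.0715, 95% interval 0.17 to 0.49). That difference passed the threshold without Rluc replicate 3 (adjusted p = 0.0389).

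Counted by hairpin against Rluc, 3 members rose with Brg1sh_3232, where 20.8% of all genes were called, 9.59% as higher. With Brg1sh_4935 3 rose, where 22.1% of all genes were called, 9.79% as higher. With Brg1sh_3364 5 rose and 1 fell, where 25.7% were called, 13.6% as higher and 12.2% as lower. The same Rluc arrays serve all 3 counts. Klf2, Klf6 and Klf10 were the members called with every hairpin, while 12.2% of all genes were called in 1 direction with each of them. Klf3, Klf4 and Klf13 were called with none on the values as deposited. Over all genes the share of calls that were higher was 44.3% with Brg1sh_4935, and 31.6% with arrays centred on their medians.

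The order of the hairpins for Klf2, Klf6 and Klf10 was not that of the macrophage markers measured on the same arrays. In the mean comparison 13.3% of all genes were called higher and 15% lower. All 8 measured macrophage and monocyte markers rose in it. Their average level was 10.59 to 10.72 with Rluc and 11.50 to 12.01 with knockdown. Their median rise was 1.11 with Brg1sh_3232, 1.12 with Brg1sh_4935 and 0.63 with Brg1sh_3364. Compared directly, 4 of the 8 were higher with Brg1sh_3232 than with Brg1sh_3364 and 0 lower, while Klf2, Klf6 and Klf10 were all lower. Of all genes 3.84% were called higher and 5.81% lower there. Mpeg1, a macrophage perforin, exceeded its Brg1sh_3364 level by 0.66 with Brg1sh_3232 (SE 0.05, limma adjusted p = 0.000186). Csf1r, the macrophage growth factor receptor, did so by 0.39 (SE 0.05, adjusted p = 0.00222). Cx3cr1, the fractalkine receptor, differed by 0.44 (SE 0.07, adjusted p = 0.00559), and Adgre1, which encodes F4/80, by 0.12 (SE 0.07, adjusted p = 0.327). These 4 markers were chosen after their values were seen. Whether the macrophage programme has a part in the Klf changes was not tested.

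**Figure D3:**
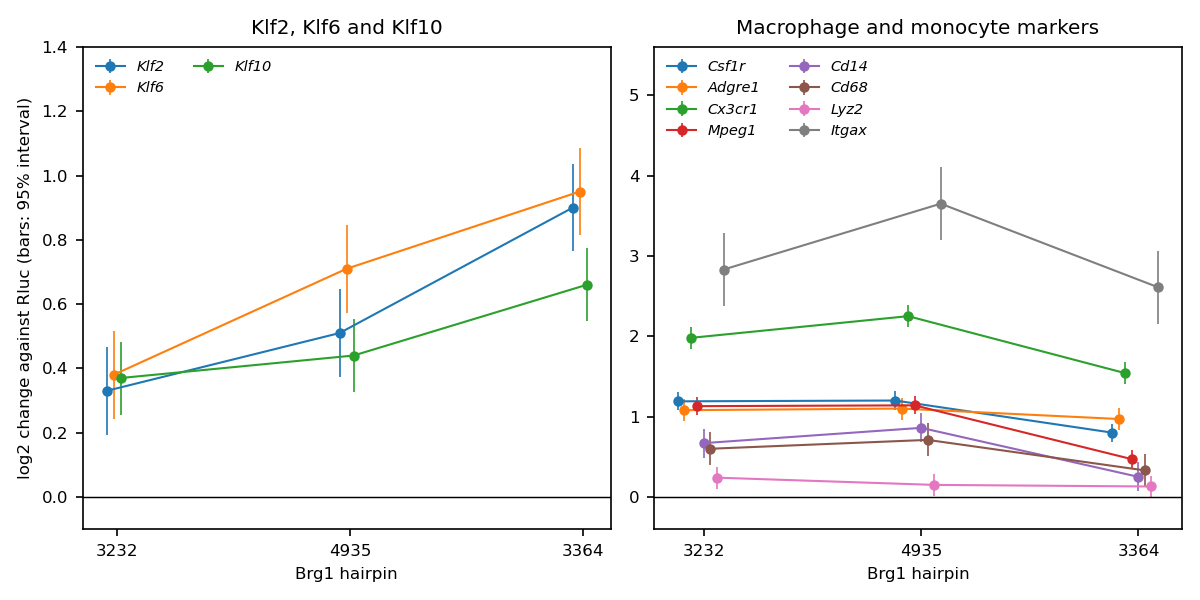
Log2 change against Rluc by hairpin for Klf2, Klf6 and Klf10 (left) and for 8 macrophage and monocyte markers (right), on different vertical scales; bars are 95% intervals and lines join the values of 1 gene. The Klf genes are highest with Brg1sh_3364, where the median rise of the markers is 0.63 against 1.11 and 1.12 with the other hairpins.

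Across the 9 arrays Klf2, Klf6 and Klf10 ran together, with Pearson correlations of 0.97 between Klf2 and Klf6, 0.96 between Klf2 and Klf10 and 0.97 between Klf6 and Klf10. Klf2 and Klf9 ran in opposite directions (-0.89). These values describe arrays that share 4 groups, and carry no test. The genes most like Klf2 over the arrays were Eya1 (0.991), a cofactor of homeobox proteins, Trem1 (0.988), an activating receptor of neutrophils and monocytes, and Slc52a3 (0.988), a riboflavin transporter. Most like Klf6 were Slfn2 (0.991), a Schlafen gene of quiescent lymphocytes, Eya1 (0.986) and Ccpg1 (0.984), an autophagy receptor of the endoplasmic reticulum. Most like Klf10 were Phc1 (0.997), a Polycomb subunit, Nrbp1 (0.995), a pseudokinase, and Cast (0.994), the calpain inhibitor. For Klf11 they were Mllt1 (0.970), Stat6 (0.963) and Sh3gl1 (0.962).

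In the rest of the family, Klf5 and Klf8 changed with single hairpins. By limma 0 of 8 other Klf genes were called over the mean of the hairpins, with a median change of -0.03. Of these, 1 gene, Klf8, had an unadjusted p below 0.05 (adjusted p = 0.104). Klf5, a factor of epithelia and of granulocyte maturation, went in opposite directions with Brg1sh_3232 and Brg1sh_3364. It read 10.39, 10.62 and 10.36 with Rluc, 10.10 and 10.11 with Brg1sh_3232, 10.29 and 10.33 with Brg1sh_4935, and 10.93 and 10.97 with Brg1sh_3364. Both Brg1sh_3232 arrays were thus below every control and both Brg1sh_3364 arrays above. Klf5 fell with Brg1sh_3232 (-0.35, SE 0.07, limma adjusted p = 0.00934) and rose with Brg1sh_3364 (0.49, SE 0.07, adjusted p = 0.00115), and the hairpins differed by the F test (adjusted p = 0.00107). Its mean change was -0.00, and Brg1sh_3232 lay below Brg1sh_3364 by 0.84 (-0.84, SE 0.08, adjusted p = 0.000603).

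Klf8, a CtBP-binding repressor, read 5.73, 5.80 and 5.78 with Rluc and 6.43 and 6.13 with Brg1sh_3364, the highest arrays of the 9. It rose with Brg1sh_3364 by 0.51 (SE 0.08, limma adjusted p = 0.0015) and not with the others (-0.08 and 0.04). All 9 Klf8 values lay below 7.8, the median level of all genes, and no detection calls were used. Klf1, the erythroid member, read 6.88 to 7.08 with Rluc and had a mean change of 0.06 (adjusted p = 0.57). Klf12, Klf14, Klf15, Klf16 and Klf17 had mean changes between -0.06 and -0.01, with adjusted p from 0.466 to 0.929. Klf8 was called over the mean without Brg1sh_3364 replicate 2 (0.20, adjusted p = 0.00707).

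Of 8 measured Sp genes, the sister family, Sp3 was called. It rose by 0.17 (SE 0.04, limma adjusted p = 0.0133), from 11.84, 11.71 and 11.70 with Rluc to between 11.81 and 12.03 with knockdown. The call was lost without Rluc replicate 2 (adjusted p = 0.0598) or 3 (0.0579), without Brg1sh_3364 (0.108) and with arrays centred (0.0814). Sp4 rose with Brg1sh_3364 (0.29, SE 0.06, adjusted p = 0.00828), was not called with the others, and differed among them (F test adjusted p = 0.00798). Sp1 differed among the hairpins as well (F test adjusted p = 0.0381) with a mean change of 0.02. The mean changes of Sp5, Sp6, Sp7, Sp8 and Sp9 ran from -0.12 to 0.20 and were not called, though Sp9 was without Brg1sh_4935 replicate 1 (-0.17, adjusted p = 0.0357).

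**Figure D4:**
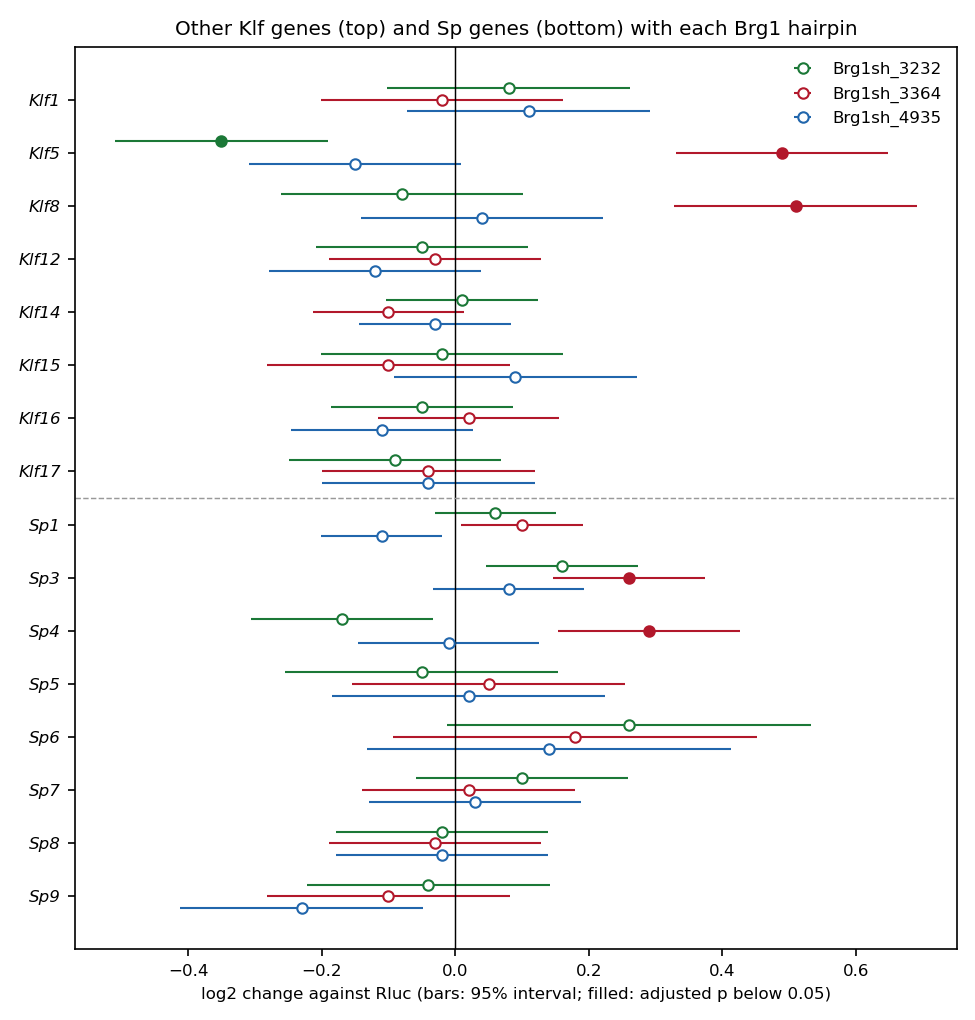
Log2 change against Rluc of the other Klf genes and of the Sp genes with each hairpin, bars being 95% intervals and filled points adjusted p below 0.05. Klf5 splits between -0.35 with Brg1sh_3232 and 0.49 with Brg1sh_3364, and Klf8 and Sp4 depart from 0 with Brg1sh_3364.

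Inputs and partners of the Klf genes were counted from lists chosen with earlier results of these data known. Over the mean of the hairpins 28.3% of all genes were called, 13.3% as higher and 15% as lower. Of 8 kinases and transcription factors that act upstream of Klf2 and Klf4, 5 rose and 0 fell over the mean of the hairpins, with a median change of 0.28. Foxo1, which activates Klf2 in lymphocytes, read 7.79, 7.96 and 7.83 with Rluc and 9.13 to 9.42 with knockdown. No array overlapped, and the rise was 1.38 (SE 0.05, limma adjusted p = 5.46e-07). The kinase genes Map3k2 and Map3k3, at the head of the Erk5 cascade, rose by 0.36 (SE 0.04, adjusted p = 0.00014) and 0.38 (SE 0.04, adjusted p = 0.000206). Mef2c and Mef2d, whose products recognise the MEF2 consensus, rose by 0.29 (SE 0.04, adjusted p = 0.00055) and 0.27 (SE 0.06, adjusted p = 0.00684). Binding to the match in the Klf2 window was not measured, and any part of these genes in the Klf2 change was not tested. By hairpin, 5 of the 8 rose with Brg1sh_3232, 7 with Brg1sh_3364 and 5 with Brg1sh_4935. Of all genes 9.59%, 13.6% and 9.79% were called higher with these hairpins. The median changes of the 8 were 0.28, 0.26 and 0.33 in the same order. Between any pair of hairpins 0 of the 8 were called.

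For the TGF-beta pathway, which induces Klf10 and Klf11, 7 of 11 measured genes rose and 0 fell, with a median change of 0.20. In the same comparison 13.3% of all genes were called higher and 15% lower. The 7 include Skil, the gene of a Smad inhibitor, so they are not activators of the pathway alone. Tgfb1, the ligand, rose by 0.25 (SE 0.04, limma adjusted p = 0.00118) and its receptor gene Tgfbr2 by 0.20 (SE 0.04, adjusted p = 0.00421). Tgfbr1, the type I receptor, rose by 0.44 (SE 0.04, adjusted p = 0.000102). It rose most with Brg1sh_4935 (0.75) and less with Brg1sh_3232 (0.25) and Brg1sh_3364 (0.32), a different order from that of Klf10. Whether the pathway has a part in the Klf10 change was not tested. Smad4, the shared mediator, rose by 0.25 (SE 0.04, adjusted p = 0.00133). Skil, which encodes the Smad inhibitor SnoN, also stood highest with Brg1sh_3364, with 9.20 and 9.13 in Brg1sh_3232, 9.49 and 9.40 in Brg1sh_4935 and 9.89 and 9.95 in Brg1sh_3364 beside 9.31, 9.30 and 9.38 in Rluc. Its mean rise of 0.18 (SE 0.04, adjusted p = 0.00772) rested on Brg1sh_3364, without which the change was -0.02 (adjusted p = 0.77). Smad7, itself bound by Klf10, had a change of -0.10 (adjusted p = 0.159), which was called after a further quantile normalization (-0.16, adjusted p = 0.0286) and without Brg1sh_3364 (-0.17, adjusted p = 0.0248).

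**Figure D5:**
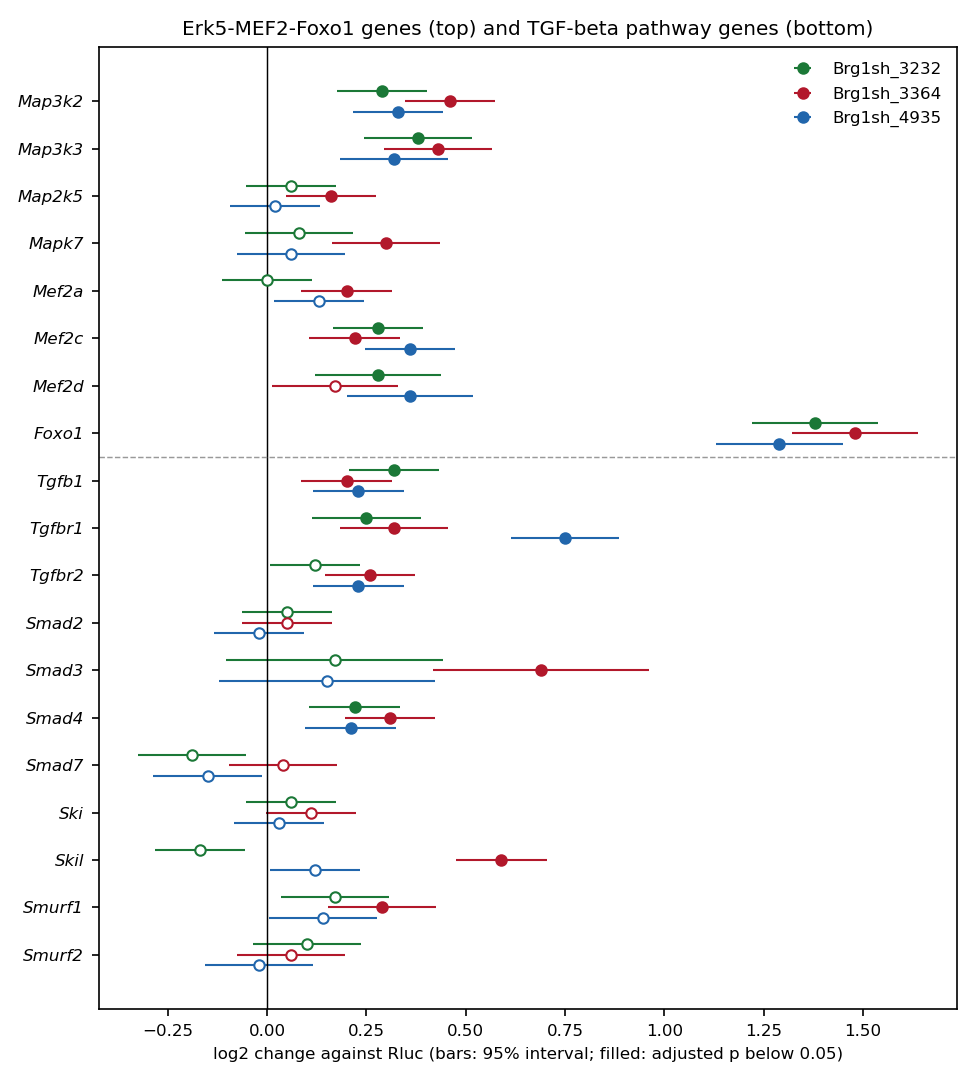
Log2 change against Rluc of genes upstream of Klf2 and Klf4 (above the dashed line) and of TGF-beta pathway genes (below it), with 95% intervals and filled points for adjusted p below 0.05. Foxo1 stands apart at 1.29 to 1.48 with the hairpins, and Skil spreads from -0.17 to 0.59.

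The glucocorticoid receptor, an input of Klf9, and other targets of that receptor split: of 7 genes 3 rose and 2 fell. Over all genes 13.3% were called higher and 15% lower. Sgk1, a kinase, fell by 0.51 (log2 change -0.51, SE 0.04, limma adjusted p = 2.24e-05) and Fkbp5, a chaperone of the receptor, by 0.24 (-0.24, SE 0.04, adjusted p = 0.000796). Per1, a clock gene, rose by 0.38 (SE 0.05, adjusted p = 0.000487). The receptor gene Nr3c1 rose by 0.17 (SE 0.04, adjusted p = 0.00917). It was not called without Brg1sh_3364 (adjusted p = 0.195) and with arrays centred (0.0768). Tsc22d3, which encodes GILZ, rose by 0.36 (SE 0.09, adjusted p = 0.0132), and this too was lost without Brg1sh_3364 (0.255).

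Of 12 co-regulators that bind Klf proteins, 5 rose and 2 fell, but with arrays centred 1 rose and 3 fell. As deposited, 13.3% of all genes were called higher and 15% lower. Hdac2, a deacetylase, fell by 0.40 (log2 change -0.40, SE 0.06, limma adjusted p = 0.000715), and Sap30, of the Sin3 complex, by 0.26 (-0.26, SE 0.05, adjusted p = 0.00445). Ep300, an acetyltransferase, rose by 0.33 (SE 0.06, adjusted p = 0.00221). Ctbp1 and Ctbp2, the partners of Klf3 and Klf8, had changes of 0.08 and -0.11 and were not called (adjusted p = 0.134 and 0.0521), though Ctbp2 was with arrays centred (-0.15, adjusted p = 0.0196). Among 6 ubiquitin ligase subunits that act on Klf proteins, Wwp1 fell by 0.39 (-0.39, SE 0.04, adjusted p = 6.58e-05), while Fbxo32 rose by 0.55 (SE 0.05, adjusted p = 5.39e-05) and Smurf1 by 0.20 (SE 0.05, adjusted p = 0.00991). The Smurf1 call was lost without Brg1sh_3364 (0.0508). Fbxo32 averaged 7.29 with Rluc, below 7.8, the median level of all genes.

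Of 14 measured genes known as Klf targets in other cells, 5 rose and 1 fell over the mean of the hairpins, with a median change of 0.12. There 28.3% of all genes were called, 13.3% as higher and 15% as lower. This list shares Tgfb1, Smad7 and Klf8 with those above, and Cd14 with the macrophage markers. Itgb7, an integrin chain, read 7.73, 7.78 and 7.68 with Rluc and 8.09 to 8.56 with knockdown, a rise of 0.61 (SE 0.05, limma adjusted p = 1.82e-05). Among the hairpins it was lowest with Brg1sh_3364, where Klf2 was highest. Any part of Klf2 in the Itgb7 change was not tested. Lgals3, a gene that Klf3 represses, rose by 0.42 (SE 0.07, adjusted p = 0.00165), and Cd14, which Klf4 activates in monocytes and which is 1 of the 8 macrophage markers counted above, by 0.59 (SE 0.06, adjusted p = 9.8e-05). S1pr1, the lymphocyte egress receptor and a Klf2 target, read 6.35 to 7.11, below 7.8, the median level of all genes. It rose by 0.25 (SE 0.06, adjusted p = 0.0161), with 0.54 in Brg1sh_4935 against 0.14 and 0.07 in the others. That call was lost without Brg1sh_4935 (adjusted p = 0.203) and without Rluc replicate 2 (0.0539) or 3 (0.0751). C1qtnf12, the gene of the hormone adipolin and another target of Klf3, was the gene called lower (log2 change -0.23, SE 0.07, adjusted p = 0.029). Its change was -0.50 with Brg1sh_4935 (adjusted p = 0.00257), -0.18 with Brg1sh_3232 (adjusted p = 0.194) and -0.00 with Brg1sh_3364 (adjusted p = 1). The mean call was lost without Brg1sh_4935 (-0.09, adjusted p = 0.496) and without any 1 array other than Brg1sh_3232 replicate 2 or Rluc replicate 3 (adjusted p from 0.0596 to 0.127).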

How the data were processed

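RNA levels of 9 arrays were analysed. The authors deposited log2 levels for each probe set after RMA, per the submitters' processing notes. The RMA version is not given in the sources used here. Of 34760 probe sets, 21640 had 1 gene symbol, 1321 several and 11799 none. A gene was represented by the probe set with the highest mean over all arrays, leaving 19937 genes with no filter on low values. A model of the 4 group means was fitted over the 9 arrays (limma 3.58.1, R 4.3.3, 5 residual and 3.85 prior degrees of freedom). Tests were two-sided, with Benjamini-Hochberg adjustment over all genes, and the fit was tested on simulated data. The 95% intervals are unadjusted. Precision is limited by how few arrays each group has.

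Genes were named by a rule: the members, the target Smarca4, the other Klf and Sp genes and, of each further list, up to 5 called genes with the smallest p. Ctbp1, Ctbp2, Smad7, C1qtnf12, the cell type markers and further genes that differed among the hairpins were named outside it, after their values were seen. The genes most like a member had the highest Pearson correlation over the arrays, without predicted or clone names. The members and lists were chosen with earlier results of these data known. Marker lists for endothelial cells (1 of 4 genes called) and fibroblasts (1 of 3) were also counted, where 28.3% of all genes were called. Alternatives covered scaling, low levels, probe sets, the variance model, array weights, replicate numbers, thresholds and left-out arrays or hairpins. Scanner files were not used here, so scan dates and background could not be examined.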

Additional observations from a re-analysis of the deposited data

Results flagged for a closer look

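These results differed among the 3 Brg1 hairpins by limma's F test, adjusted over all genes. The same test called 10.5% of all genes. Among the members they were Klf2 (adjusted p = 0.00336), Klf6 (0.00394) and Klf10 (0.0125), each highest with Brg1sh_3364. In the rest of the family they were Klf5 (0.00107), Klf8 (0.00669), Sp1 (limma adjusted p = 0.0381) and Sp4 (0.00798). In the TGF-beta list Skil (0.00039), Tgfbr1 (0.00297) and Smad3 (0.0433) passed, with the highest level of Tgfbr1 in Brg1sh_4935 and of the others in Brg1sh_3364. In the glucocorticoid list 5 of 7 genes passed: Dusp1 (0.00524), Zbtb16 (0.0116), Nr3c1 (0.025), Tsc22d3 (0.0316) and Fkbp5 (0.0416). Dusp1, a phosphatase gene, changed by -0.55 with Brg1sh_3232 (limma adjusted p = 0.00269) and by 0.16 with Brg1sh_3364 (adjusted p = 0.257). Among Klf targets the F test called Cd14 (0.0057), Ccnd1 (0.0062), Itgb7 (0.0167), S1pr1 (0.0214), C1qtnf12 (0.0218) and Thbd (0.0226), besides Klf8. Among macrophage markers it called Mpeg1 (0.000263), Cx3cr1 (0.00136), Csf1r (0.00226) and Itgax (0.0321), besides Cd14. Of the leukaemia markers Mpo (0.000929), Prtn3 (0.00272), Elane (0.0115) and Ctsg (0.0121) passed, and of the endothelial and fibroblast markers Pecam1 (0.0157) and Pdgfrb (0.000882). Smarca4 itself had an adjusted p of 0.802 in this test.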

How the results depend on the processing

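Over the mean of the hairpins Klf2, Klf6 and Klf10 kept direction and call in all 22 alternatives. Their rises were 0.42 to 0.71, 0.54 to 0.83 and 0.40 to 0.55. Klf11 was lost and Klf9 was called lower with arrays centred, after further quantile normalization or without Brg1sh_3232. The quantile normalization also called Klf13 higher. So over this mean the split of 4 higher and 0 lower was not kept in these settings. The number of members called stayed within 1.5 times for that comparison and for each hairpin against Rluc (2 to 3, 4 to 6 and 3 with 1 array left out, for Brg1sh_3232, Brg1sh_3364 and Brg1sh_4935). With 1 array left out, 2 to 4 members were called between Brg1sh_3232 and Brg1sh_3364, 0 to 3 between Brg1sh_4935 and Brg1sh_3364 and 0 to 1 between Brg1sh_4935 and Brg1sh_3232. Between Brg1sh_4935 and Brg1sh_3364 the count was 1 after further quantile normalization, 1 with every probe set tested, 4 with array weights and 0 at an adjusted p below 0.01. Between Brg1sh_4935 and Brg1sh_3232 it was 1 after quantile normalization, without dim genes or with array weights. Members with groups that did not overlap numbered 3 to 5 with 1 array left out and 5 without Brg1sh_4935. Over all genes such groups became more frequent too, from 4552 genes with all arrays. They numbered 4694 to 5881 with 1 array left out and 5190 without Brg1sh_4935.

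On the lists, 0 Sp genes were called with arrays centred, the replicate block, a threshold of 0.01, without Brg1sh_3364 or with the 3 hairpin means as replicates, and 0 to 2 with 1 array left out. Other Klf genes called numbered 1 without Brg1sh_3232, 1 without Brg1sh_3364 (Klf8 at 0.27 and Klf5 at -0.25) and 0 to 1 with 1 array left out. Co-regulators called numbered 4 with arrays centred, 4 with the replicate block, 3 at 0.01, 3 without Brg1sh_3364, 2 with hairpin means and 4 to 6 with 1 array left out. With hairpin means 3 glucocorticoid, 3 TGF-beta and 3 target genes were called. Skil reversed to -0.02 without Brg1sh_3364. The cause of these changes was not tested. The arrays share replicate numbers, but deviations of same-numbered arrays correlated at only -0.07 to 0.25, so the numbers were not taken as pairs. Only 4 of 8 arrays correlated best with an array of their own number. In a group of 2 arrays the deviations mirror each other. The 8 matches are therefore not separate observations, and the check cannot settle whether arrays were paired. With the replicate block, 3 members were called over the mean, Klf11 being lost (adjusted p = 0.0775), and all genes called went from 5635 to 4712. Between Brg1sh_4935 and Brg1sh_3232 the block raised all genes called from 204 to 382. That count was 310 after quantile normalization, 394 without dim genes, 18 with every probe set, 349 with array weights, 25 at 0.01 and 8 to 467 with 1 array left out. Between Brg1sh_4935 and Brg1sh_3364 it went from 1518 to 840 with every probe set, 2363 with array weights and 637 at 0.01. The F test went from 2086 to 1134 with every probe set and 775 at 0.01. At 0.01 Brg1sh_3232, Brg1sh_3364 and Brg1sh_4935 against Rluc went from 4155 to 2380, 5133 to 3246 and 4402 to 2813, and Brg1sh_3232 against Brg1sh_3364 from 1925 to 759. With 1 array left out the F test called 677 to 2521 genes, Brg1sh_3232 against Brg1sh_3364 702 to 2213, Brg1sh_4935 against Brg1sh_3364 486 to 1830, and against Rluc Brg1sh_3232 2473 to 4136 and Brg1sh_4935 2673 to 4292. Brg1sh_3232 fitted with Rluc alone gave 2475, and hairpin means gave 2816 for the mean of the hairpins. Dim genes could not be told from unexpressed ones, because no detection values were used.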
